A study of Homo sapiens with 8 samples.

Results

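The SLC2A genes encode the GLUT proteins, membrane carriers that let sugars cross the cell membrane down their gradient. The members described here are 7 genes, SLC2A1, SLC2A3, SLC2A14, SLC2A5, SLC2A6, SLC2A8 and SLC2A4RG, taken as every probe whose symbol in the array's annotation is on that list. Each gene had 1 probe, so the group is 7 of 47230 probes. SLC2A4RG is not a transporter: it encodes a DNA-binding regulator named for its action on SLC2A4, and it belongs to the group by name alone. The group was chosen by a measured value, the siRE minus siMM difference of SLC2A3, which earlier results of these data gave as the deepest fall after knock-down. The difference between siRE and siMM is therefore given as a description for the members, without a p-value.

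The arrays read RNA of Kasumi-1, an established human line of acute myeloid leukaemia in which the t(8;21) translocation fuses RUNX1 to RUNX1T1, the gene of ETO. By electroporation, the siRE arm received RUNX1/ETO siRNA at 200 nM and the siMM arm the same dose of mismatch siRNA. Each arm has 4 arrays, 1 at each of 48, 96, 168 and 240 h after the 1st electroporation. The cells had by then been electroporated 1, 1, 2 and 3 times, the last time 48, 96, 72 and 72 h earlier. No time has a replicate, the number of arrays limits the precision, and the labels do not say if separate cultures stand behind the times. All cells are of 1 line, and every arm was electroporated, so no array shows untreated cells. Values are the authors' normalized values, treated as log2, and a fold below holds only if they are plain log2. A value above 5.90 was taken as above background. With bulk RNA, fewer cells of a kind and less RNA per cell cannot be told apart.

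The target was read first. By its brightest probe, ILMN_1812795, RUNX1T1 stood at 7.52, 7.81, 7.43 and 7.18 in siRE at 48, 96, 168 and 240 h, against 8.86, 9.23, 8.72 and 8.65 in siMM. There it was lower in siRE at every time, and the arms did not overlap. A dim RUNX1T1 probe, ILMN_1724669, was above background on 2 siRE arrays and 0 siMM arrays. It was higher in siRE at all 4 times, by 0.28 in the mean, and did not pass (limma adjusted p = 0.261). Of the 5 Kasumi-1 markers tested, RUNX1T1 and CD34, a surface marker of immature blood cells, were called lower in siRE. CD34 stood at 10.99, 10.24, 9.06 and 8.50 in siRE, against 11.37, 11.57, 11.72 and 11.62 in siMM (difference -1.87, SE 0.35, limma adjusted p = 0.00958). It was furthest from siMM at 240 h, and its part in the results below was not tested. MPO, the granule peroxidase, ranged from 13.91 to 14.16 in siRE and from 14.06 to 14.24 in siMM, and KIT, the stem cell factor receptor, from 10.85 to 11.14 in siRE and from 10.83 to 11.38 in siMM. SPI1, the remaining marker, ranged from 9.86 to 10.63 in siRE and from 9.52 to 9.98 in siMM. Its difference of 0.39 did not pass (limma adjusted p = 0.185). None of 7 erythroid markers with a probe passed the background filter, against 2 of 4 B-cell and 2 of 5 T-cell markers. EPCAM, the 1 of 7 fibroblast and epithelial markers that passed, ranged from 11.03 to 11.40 in siRE and from 11.27 to 11.60 in siMM.

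GLUT proteins differ in their sugar and in where they act. SLC2A1 (GLUT1) is the widespread basal glucose carrier, SLC2A3 (GLUT3) a high-affinity glucose carrier known from neurons and white blood cells, and SLC2A5 (GLUT5) a fructose carrier. SLC2A14 (GLUT14) is a near-identical copy of SLC2A3 next to it on chromosome 12, known from testis. SLC2A6 and SLC2A8 encode carriers held mainly on membranes inside the cell. Transcription of SLC2A1 and SLC2A3 is known to be raised by hypoxia-inducible factor (HIF), and the protein TXNIP is known to lower GLUT1 at the cell surface.

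Of the 7 members, 5 exceeded 5.90 on at least 2 of the 8 arrays and entered the fits. SLC2A14 passed that filter through 2 siMM arrays alone, at 6.69 and 6.68. SLC2A6 and SLC2A8 did not pass, and their highest values on any array were 5.13 and 5.35.

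SLC2A3 (ILMN_1775708, NM_006931, chromosome 12) had the largest difference of the group. It stood at 7.62, 9.17, 5.92 and 4.60 in siRE at 48, 96, 168 and 240 h, against 9.50, 11.28, 11.04 and 9.53 in siMM. Every siRE array was below every siMM array, the closest being the siRE array of 96 h and the siMM array of 48 h. At 168 h the siRE value was barely above background, and at 240 h it was under it. The differences were -1.88, -2.11, -5.12 and -4.94 in that order of times, 3.69-fold, 4.32-fold and 34.8-fold lower in siRE at 48, 96 and 168 h, and at least 12.4-fold lower at 240 h, where the siRE value is only a bound. The means were 6.83 ± 1.99 in siRE and 10.34 ± 0.95 in siMM (SD, n = 4 arrays each), a difference of -3.51. Its SE of 0.47 is the moderated one of limma, which borrows from other probes and is not the gene's own spread. With values raised to the background limit the difference was -3.19. Both arms had their highest SLC2A3 value at 96 h. From 96 h to 240 h the siRE value was lower by at least 3.27, since the later value is under background, and the siMM value by 1.75.

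SLC2A14 (ILMN_1668865, NM_153449, chromosome 12) ran the same way at a dim probe. It stood at 4.65, 5.57, 4.64 and 4.60 in siRE, against 5.41, 6.68, 6.69 and 5.83 in siMM. No siRE array was above background, and in siMM those of 96 and 168 h were. The means were 4.86 ± 0.47 in siRE and 6.15 ± 0.64 in siMM (SD, n = 4 arrays each), and with siRE set to the background limit SLC2A14 was at least 1.19-fold lower there. By time, SLC2A14 was at least 1.72-fold lower in siRE at 96 h and at least 1.73-fold lower at 168 h. At 48 and 240 h both arms were below background, so those differences have no order. Because SLC2A14 and SLC2A3 are near-identical, the transcripts each probe reads are uncertain. Over the 8 arrays the 2 probes correlated at Pearson's r = 0.92 (Spearman's rho = 0.95), a description over arrays that share the arms and times. On the siRE array of 240 h both carried the same value, 4.60, which 68 probes of that array share.

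**Figure D1:**
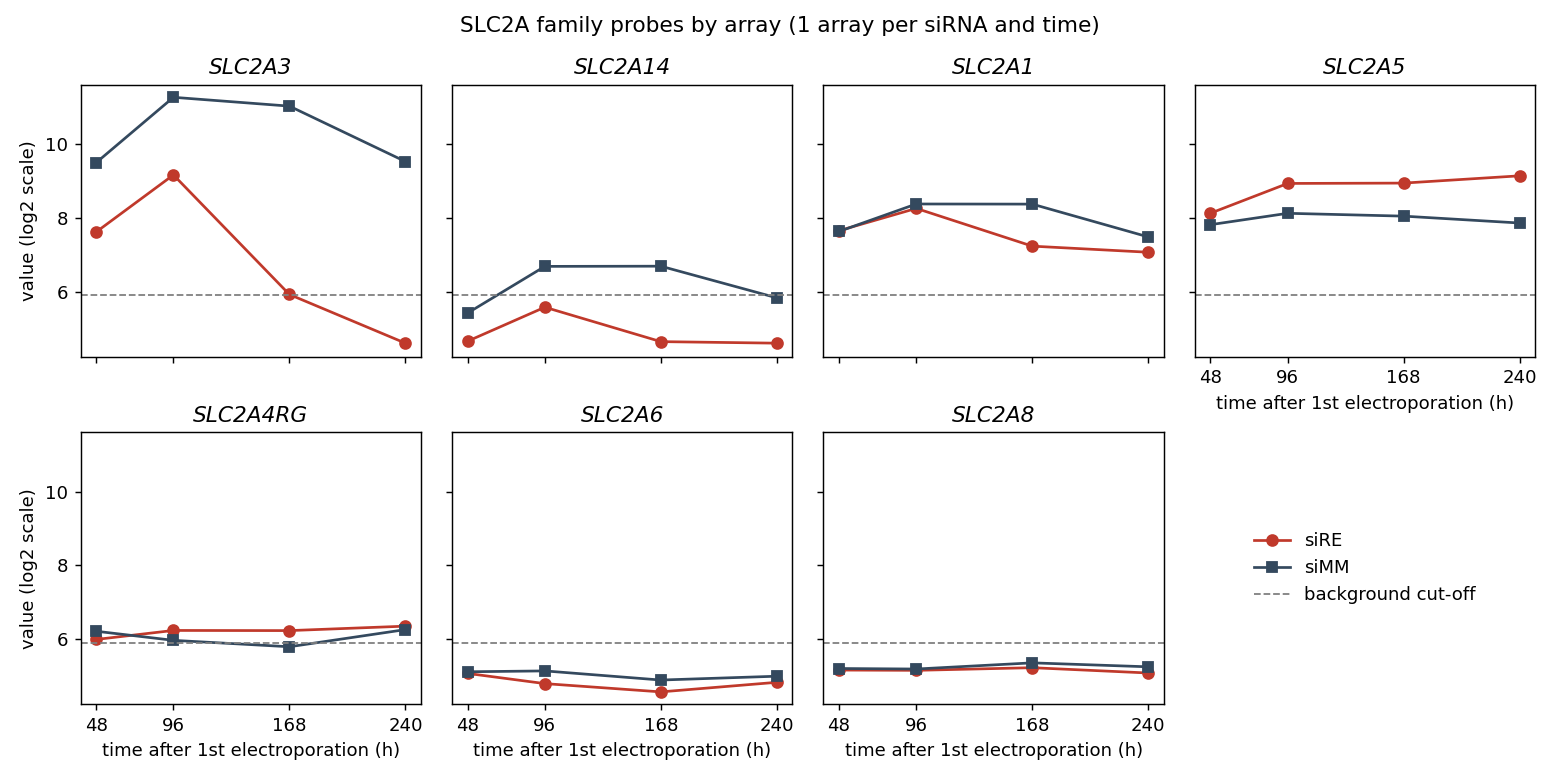
Normalized value (log2 scale, y) of each SLC2A family probe against time after the 1st electroporation (h, x), with 1 array per point, red circles for siRE and dark squares for siMM. The dashed line is the background limit of 5.90; SLC2A3 lay under it in siRE at 240 h (4.60), and SLC2A6 and SLC2A8 stayed under it on all 8 arrays.

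SLC2A1 (ILMN_1659027, NM_006516, chromosome 1) differed late and less. It stood at 7.65, 8.26, 7.23 and 7.07 in siRE, against 7.63, 8.38, 8.38 and 7.48 in siMM. The arms lay close together at 48 and 96 h and overlapped. The differences were 0.02, -0.12, -1.14 and -0.42 at 48, 96, 168 and 240 h. SLC2A1 averaged 7.55 ± 0.53 in siRE and 7.97 ± 0.48 in siMM (SD, n = 4 arrays each). The mean difference was -0.41 (SE 0.18), and 168 h held the largest share of it. The SDs within the arms also hold the course over time, so they do not measure the spread of the paired difference.

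SLC2A5 (ILMN_1671337, NM_003039, chromosome 1), the fructose carrier, ran the other way. It stood at 8.13, 8.94, 8.95 and 9.15 in siRE, against 7.82, 8.13, 8.05 and 7.86 in siMM. It was higher in siRE at all 4 times, and the arms did not overlap, although the lowest siRE value, at 48 h, was only just above the highest siMM value, at 96 h. The differences were 0.31, 0.81, 0.90 and 1.28 at 48, 96, 168 and 240 h, so the last was 2.43-fold. The means were 8.79 ± 0.45 in siRE and 7.96 ± 0.15 in siMM (SD, n = 4 arrays each), a difference of 0.83 (SE 0.16). The siMM values of SLC2A5 spanned 0.31 over the times and the siRE values 1.02.

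SLC2A4RG (ILMN_1740430, NM_020062, chromosome 20), the DNA-binding regulator, stayed close to background. It stood at 5.99, 6.23, 6.23 and 6.35 in siRE, against 6.21, 5.97, 5.79 and 6.26 in siMM. The arms overlapped, and the differences of -0.22, 0.27, 0.44 and 0.09 changed sign between 48 and 96 h. SLC2A6 (ILMN_1778321, chromosome 9) ranged from 4.56 to 5.07 in siRE and from 4.89 to 5.13 in siMM. SLC2A8 (ILMN_1724609, chromosome 9) ranged from 5.08 to 5.22 in siRE and from 5.19 to 5.35 in siMM. All their values were below background, so their differences have no order.

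**Figure D2:**
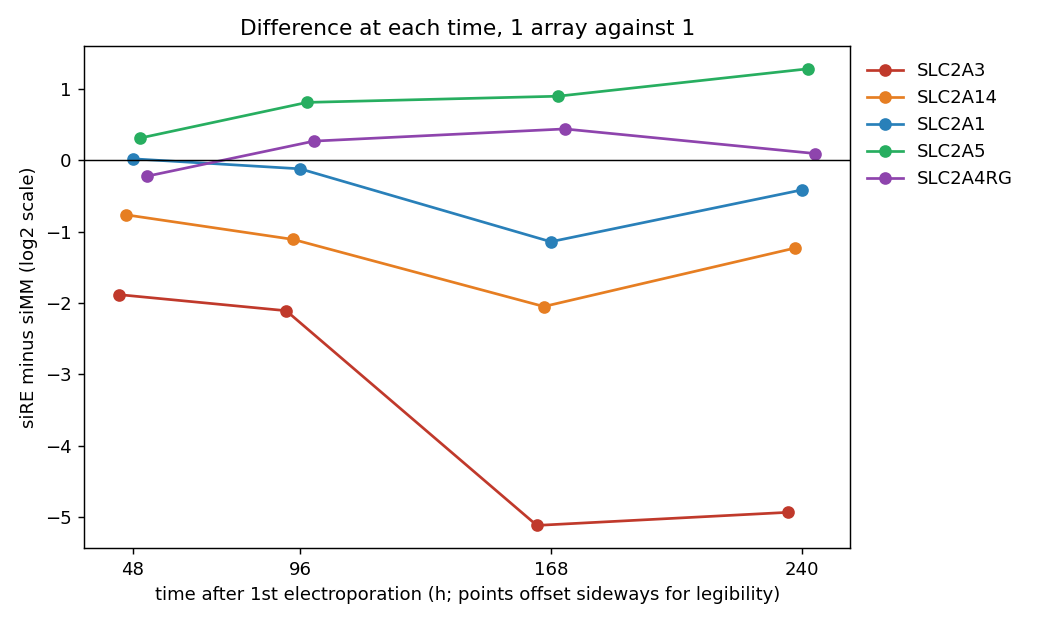
Difference siRE minus siMM (log2 scale, y) at each time (h, x) for the 5 tested members, 1 array against 1 with no error. SLC2A3 lay at -1.88 at 48 h and -5.12 at 168 h, SLC2A5 at 1.28 at 240 h, and SLC2A1 near 0 until 168 h; the siRE values behind SLC2A14 are all below background.

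Across all 14644 probes tested with limma, 6.07% passed an adjusted p of 0.05 for siRE against siMM over the 4 times, 3.27% higher and 2.8% lower. Of the 5 tested members, 3 did, SLC2A3 and SLC2A14 lower and SLC2A5 higher, and SLC2A14 entered the test only through siMM arrays, where it is high. Since the group was chosen with this contrast in view, the count is a description and nothing is read from it. The call of SLC2A3 ended under a robust prior with an intensity trend, at an unchanged -3.51. Raising all values below background to the limit ended that of SLC2A14, whose difference was then -0.39. Leaving out the 96 h arrays (0.83) or those of 168 h (0.80) ended that of SLC2A5. By the size of the difference at single times, SLC2A3 was lower by 1 or more at all 4 times, which 0.273%, 0.56%, 1.64% and 4.95% of tested probes were at 48, 96, 168 and 240 h. SLC2A5 was higher by 1 or more at 240 h alone, as were 3.51% of tested probes. Arms that do not overlap, with siRE lower as for SLC2A3, occurred in 5.11% of tested probes, and with siRE higher as for SLC2A5 in 5.01%. The choice of the group by the SLC2A3 difference fixed these sizes in part, so nothing is read from the shares either.

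The siRNA is directed at a fusion that carries the DNA-binding domain of RUNX1. The upstream sequences are therefore shown for SLC2A14, SLC2A5 and SLC2A1, members whose arms parted at least at 1 time. They are the 250 bases before each gene's annotated start, on the gene's strand, from RefSeq in build GRCh38.p14, where a start was given for 6 of the 7 members. SLC2A3 was the member without one, so no upstream sequence of SLC2A3 was searched. The letters searched were TGTGGT, the core bound by RUNX factors, and ACGTG, the core bound by HIF, both on either strand, and matches are in capitals.
SLC2A14 (chr12:7872916-7873165, minus strand): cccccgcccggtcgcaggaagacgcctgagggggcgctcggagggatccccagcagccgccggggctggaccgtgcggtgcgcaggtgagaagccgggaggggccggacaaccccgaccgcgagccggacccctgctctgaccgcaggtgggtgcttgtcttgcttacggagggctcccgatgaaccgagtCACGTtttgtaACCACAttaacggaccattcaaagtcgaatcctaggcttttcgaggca
SLC2A5 (chr1:9069636-9069885, minus strand): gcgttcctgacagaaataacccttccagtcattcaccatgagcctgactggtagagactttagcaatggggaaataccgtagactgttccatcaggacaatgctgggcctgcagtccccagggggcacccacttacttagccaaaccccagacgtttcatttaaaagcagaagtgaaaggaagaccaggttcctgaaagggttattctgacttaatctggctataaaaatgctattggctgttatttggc
SLC2A1 (chr1:42958869-42959118, minus strand): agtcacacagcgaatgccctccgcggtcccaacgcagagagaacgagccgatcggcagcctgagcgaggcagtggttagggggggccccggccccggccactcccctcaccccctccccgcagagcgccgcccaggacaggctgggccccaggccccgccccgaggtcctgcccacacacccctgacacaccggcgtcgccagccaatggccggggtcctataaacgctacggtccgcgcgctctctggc
SLC2A14 held both, each read as its reverse complement, the HIF core beginning 59 bases and the RUNX core 48 bases before the start, with no overlap between them. Of the 6 member windows, 1 held each core, that of SLC2A14. Among all 35116 windows of that length, 11.0% held the RUNX core and 18.5% the HIF core, so the match is a description and names no bound site.

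The course over time within each arm was examined next. In siMM, SLC2A3, SLC2A14 and SLC2A1 were all higher at 96 and 168 h than at 48 and 240 h. SLC2A14 passed the background filter through its siMM arrays of 96 and 168 h alone. Its siMM values at 48 and 240 h were below background. The filter thus set this order for SLC2A14, and no gap is read for it. For SLC2A3 the deviations from the siMM mean were -0.84, 0.94, 0.70 and -0.81 at 48, 96, 168 and 240 h. For SLC2A14 they were -0.74, 0.53, 0.54 and -0.33, and for SLC2A1 -0.34, 0.41, 0.41 and -0.48. The lower of the middle values exceeded the higher of the outer ones by 1.51 in SLC2A3 and 0.74 in SLC2A1. That order, picked after the values were seen, held for 21.9% of tested probes, and with a gap of at least 0.5 for 0.84%. SLC2A5 had the same order with a gap of 0.19.

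In siRE, SLC2A3 and SLC2A1 were highest at 96 h and lower at 168 h than at 48 h. Around the siRE mean SLC2A3 stood at 0.79, 2.34, -0.91 and -2.23, SLC2A1 at 0.10, 0.71, -0.32 and -0.49, and SLC2A14 at -0.22, 0.71, -0.23 and -0.27, values that have no order because all 4 are below background. SLC2A5 instead stood at -0.66, 0.15, 0.16 and 0.36, its lowest value at 48 h and its highest at 240 h.

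**Figure D3:**
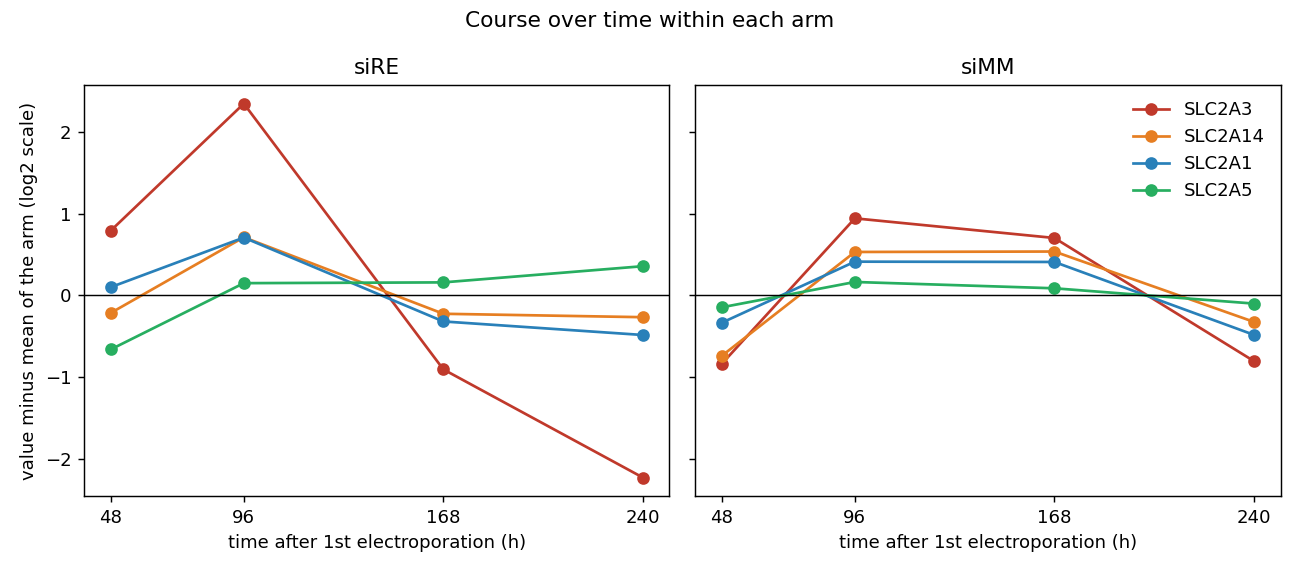
Value minus the mean of its arm (log2 scale, y) against time (h, x) for SLC2A3, SLC2A14, SLC2A1 and SLC2A5, siRE on the left and siMM on the right, 1 array per point. In siMM the first 3 genes were above their mean at 96 and 168 h, and SLC2A14 was below background at 48 and 240 h. In siRE, SLC2A3 and SLC2A1 were above their mean at 96 h and below it at 168 and 240 h. The siRE values of SLC2A14 are all below background.

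A time effect shared by both arms was tested with limma's F-test beside the siRNA, and 0.0888% of tested probes passed. No member did. The adjusted p was 0.306 for SLC2A3 (unadjusted 0.00509), 0.307 for SLC2A14 (0.00752), 0.332 for SLC2A1 (0.0145), 0.442 for SLC2A5 and 0.77 for SLC2A4RG. SLC2A14 entered this test through its siMM arrays of 96 and 168 h alone, and its siRE values are all below background. Nothing is therefore read from its p-values. The slope per day in siRE passed for 2.01% of probes. That of SLC2A3 was -0.48 (SE 0.12), the steepest of the group, and missed the threshold in limma (adjusted p = 0.0601). It passed without the 48 h pair, at -0.76 (limma adjusted p = 0.000629), and when all probes were tested (limma adjusted p = 0.0165). It stood at -0.33 with values raised to the background limit (limma adjusted p = 0.316), and the limma adjusted p was 0.263 under the robust prior and 0.315 without the 240 h pair. SLC2A3 was chosen by a difference that holds the same siRE values, so its slope is a description and nothing is read from those p-values. SLC2A5 had a siRE slope of 0.11 (SE 0.04, limma adjusted p = 0.147), SLC2A1 one of -0.11 (SE 0.06, limma adjusted p = 0.293).

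In siMM no probe of 14644 passed for a slope in limma, with 271 at an unadjusted p under 0.05 and no member among them. The siMM slopes of the members lay between -0.03 and 0.03 per day, and a slope gives the straight-line part of a course alone. The test of whether the arms drifted apart, the siRE slope minus the siMM slope, passed for 0.123% of probes. For SLC2A3 the difference of slopes was -0.45 (SE 0.17, limma adjusted p = 0.414) and for SLC2A5 0.11 (SE 0.05, limma adjusted p = 0.539). That of SLC2A3 also draws on the values by which it was chosen. The slope fit had no time block, so changes shared by both arms at a time counted as error. A miss in it thus does not show that the arms kept their distance.

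Genes around the carriers in sugar metabolism were read from lists drawn up with earlier results of these data known. Over the 8830 genes tested, each by its brightest probe, 3.76% were higher and 3.34% lower in siRE, and the median difference was -0.04. The other 8 SLC2A carriers had 14 probes, of which 1 passed the filter, a probe of SLC2A11 that read 5.84, 6.07, 5.14 and 5.83 in siRE, against 5.62, 4.98, 5.76 and 5.97 in siMM (difference 0.13, limma adjusted p = 0.764).

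Of 18 glycolysis enzymes tested, 2 fell, 0 rose and 16 did not pass, with a median of -0.40. PFKP, the platelet form of phosphofructokinase, stood at 8.78, 9.18, 7.80 and 7.81 in siRE, against 9.01, 9.70, 9.03 and 9.01 in siMM, a difference of -0.79 (SE 0.18, limma adjusted p = 0.0267). PFKFB4, which makes the activator of phosphofructokinase, stood at 8.36, 9.85, 8.29 and 6.89 in siRE, against 8.50, 10.32, 9.67 and 8.38 in siMM, a difference of -0.87 (SE 0.21, limma adjusted p = 0.0364). Both were closest to siMM at 48 h, and neither call held in a fit that left out the time point (limma adjusted p = 0.163 for PFKP and 0.406 for PFKFB4) or the pair of 96, 168 or 240 h. HK1 and HK2, the hexokinases that trap glucose after its entry, named after their values were seen, differed by -0.50 and -0.37 and did not pass (limma adjusted p = 0.0804 and 0.182).

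Of 7 carriers of lactate and other sugars tested, 1 fell, 0 rose and 6 did not pass, with a median of -0.32. It was SLC45A3, a member of the SLC45 family of putative sugar carriers, at 6.37, 5.80, 5.63 and 5.24 in siRE, against 7.14, 7.40, 7.40 and 7.62 in siMM, a difference of -1.63 (SE 0.21, limma adjusted p = 0.00126). Its arms did not overlap, and in siRE it was above background at 48 h alone; at the background limit the difference was -1.37. SLC37A3, a sugar-phosphate carrier of the endoplasmic reticulum by family, differed by -0.51 (limma adjusted p = 0.0528).

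In the pentose phosphate and glycogen lists most members did not pass. Of 7 pentose phosphate enzymes 1 rose, TKT, transketolase, by 0.52 (SE 0.13, limma adjusted p = 0.0406), with a list median of 0.26. TALDO1, transaldolase, differed by 0.36 (limma adjusted p = 0.139). Of 8 glycogen enzymes PYGB, the brain form of glycogen phosphorylase, fell by 0.81 on the log2 scale (SE 0.15, limma adjusted p = 0.008), and GYG1, the glycogenin that primes glycogen, rose by 0.93 (SE 0.18, limma adjusted p = 0.012), with a list median of -0.04. GYG1 stood at 8.97, 9.54, 9.64 and 9.88 in siRE, against 8.69, 8.51, 8.69 and 8.41 in siMM, with no overlap of the arms. With the 96 h or the 168 h arrays left out, the calls of TKT, PYGB and GYG1 ended, and that of TKT ended without the 240 h arrays and, without the time block, at a limma adjusted p of 0.201.

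Of 15 HIF pathway genes tested, 1 rose and 0 fell for siRE against siMM, with a median of -0.18. NDRG1, which hypoxia is known to induce, rose by 1.01 (SE 0.18, limma adjusted p = 0.00801), a call that ended without the 168 h pair, and also in the fit with no time term, at a limma adjusted p of 0.0802. BNIP3, a HIF-induced mitochondrial protein, differed by -0.69 (limma adjusted p = 0.0714). HIF1A itself, named after its values were seen, ranged from 6.90 to 7.06 in siRE and from 6.84 to 7.13 in siMM. Of 8 glucose-sensing and trafficking genes 0 passed in limma. At an unadjusted p under 0.05 there were 3 of them, beside 3328 of all 14644 tested probes, so nothing is read from that count. The furthest were PRKAA1, a catalytic subunit of the energy sensor AMPK, at 0.50 and AKT1, a kinase of insulin signalling, at -0.35 (limma adjusted p = 0.186 and 0.168).

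**Figure D4:**
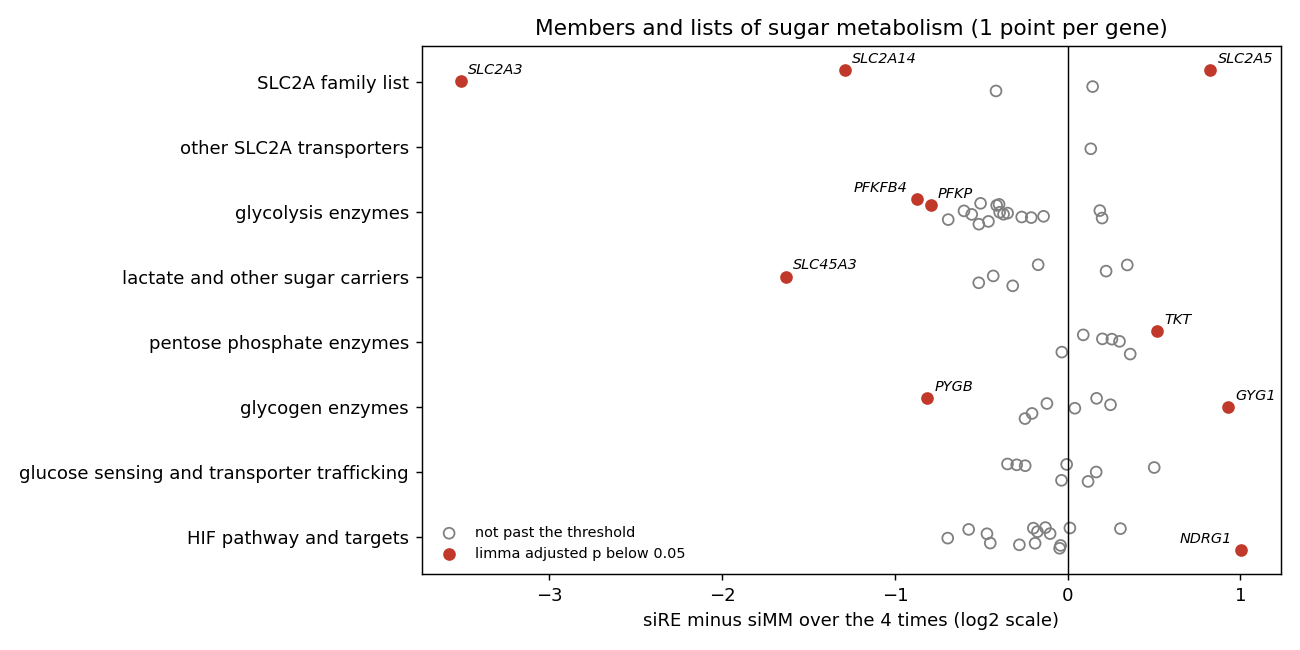
Difference siRE minus siMM over the 4 times (log2 scale, x) for the 5 tested members and for the tested genes of each sugar metabolism and HIF list (y), cell type markers left out, 1 point per gene, filled red where the limma adjusted p was below 0.05; for the members this is a description. SLC2A3 at -3.51 is the leftmost point, SLC45A3 at -1.63 comes next among the genes plotted, and NDRG1 at 1.01 is the rightmost.

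The time effect shared by both arms was also read for the listed genes. Of the 13 probes that passed among 14644, 7 were of listed genes, which are named here after their values were seen. Of 15 HIF pathway genes 5 passed, P4HA1, KDM3A, ANKRD37, ADM and BNIP3, all textbook HIF targets, beside 0.125% of all genes. The others were TXNIP, the arrestin-like protein that lowers GLUT1 at the surface, and PFKFB4. ADM, the peptide adrenomedullin, stood at 6.18, 8.60, 6.72 and 6.23 in siRE, against 6.04, 8.17, 7.80 and 6.12 in siMM (limma adjusted p = 0.043). BNIP3 stood at 10.76, 11.95, 10.14 and 9.04 in siRE, against 10.89, 12.14, 11.38 and 10.25 in siMM (limma adjusted p = 0.0479). TXNIP stood at 9.91, 11.73, 11.83 and 11.15 in siRE, against 9.72, 11.59, 12.02 and 10.63 in siMM (limma adjusted p = 0.0379). Of the 13 probes 12 had their highest mean of both arms at 96 h, as did SLC2A3, SLC2A14 and SLC2A1. So did SLC2A5, narrowly, at 8.53 against 8.50 at both 168 and 240 h. The share of all tested probes highest at 96 h was not counted, so nothing is read from this. For SLC2A14 the siRE part of the mean is below background. These calls all ended without the 96 h pair, where 0 probes passed in limma and 1411 had an unadjusted p under 0.05, and with all values raised to the background limit, where 0 passed and 2044 did. Without the 48 h pair TXNIP and ADM were not called (limma adjusted p = 0.275 and 0.0501). Whether culture time, the interval since electroporation or something else that differed between the days moved with these genes was not tested, since each time has 1 array per arm.

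The genes whose values ran most like SLC2A3 over the 8 arrays, of 8829 compared, were RAB38, a small GTPase (Pearson's r = 0.991), DHRS3, a retinaldehyde reductase (0.985), CKB, a creatine kinase (0.983), RADIL, a partner of the GTPase RAP1 (0.979), and PTPRCAP, a protein bound to CD45 (0.978). By Spearman's rank coefficient RAB38, CKB and PTPRCAP matched the order of SLC2A3 fully (rho = 1), while DHRS3 came 143rd and RADIL 44th. By Pearson's r SLC2A14 came 166th and SLC2A1 426th (r = 0.92 and 0.86), while SLC2A5 and SLC2A4RG ran against SLC2A3 (r = -0.73 and -0.64). The genes most like SLC2A1 were others: CD300A, an inhibitory receptor of myeloid cells (0.976), ALKBH5, an RNA demethylase (0.967), PLIN2, a lipid droplet coat protein (0.966), LOX, lysyl oxidase (0.96), and RAB33A, a small GTPase (0.955). By Spearman's coefficient those 5 genes came 30th, 78th, 78th, 8th and 145th for SLC2A1, so 0 were among the first 5. PLIN2 stood at 10.73 and 8.40 in siRE at 96 and 168 h, against 11.74 and 11.30 in siMM. All these coefficients rest on 8 arrays that share their arms, times and normalization. LOX was above background only in siMM at 96 and 168 h, and RADIL in siRE only at 96 h. In siRE at 240 h SLC2A3 (4.60), DHRS3 (5.68) and CD300A (5.89) were below background, and in siMM at 168 h SLC2A4RG (5.79). The coefficients of these genes, and those of SLC2A14, thus rest in part on values below background, which have no order. That holds for every coefficient with SLC2A3.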

How the data were processed

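The authors deposited a table of normalized log2 values, 1 column per sample, made from biotin-labelled cRNA on Illumina bead arrays, per the labels' protocols, with lumi (no version), per the submitters' processing notes. The sources used here do not give the background handling or say if the log2 scale is variance-stabilised. After sorting, the 8 arrays agreed within 0.0235 at every rank, so they were used without further normalization. A non-normalized table with 16 value columns was not used, since no label ties its columns to samples, and the alternative planned on it was not run.

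The background limit of 5.90 is the mode of all values, 5.22, plus the 90th percentile of how far lower values lie under it. A probe was tested if above it on 2 arrays or more (14644 of 47230). Gene names are from the platform annotation (1 symbol for 30112 probes, several for 8, none for 17110), checked against RefSeq GRCh38.p14, which changed 0 symbols. A gene was read by its brightest tested probe.

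Fits used limma 3.58.1 in R 4.3.3 on all tested probes, with Benjamini-Hochberg adjustment. The main fit modelled siRNA with the time point as a block (3 residual and 8.16 prior degrees of freedom). The other modelled a slope per arm with no time block (4 residual). P-values reflect only the spread among these arrays. Each SE of a difference or slope is limma's moderated one, drawn towards the spread of the other probes, so it can differ from a gene's own. The labels' time pairs them: deviations from arm means correlated at 0.375, 0.292, 0.212 and 0.0724 for pairs of 48, 96, 168 and 240 h. Each sample title has a letter of its own with no stated meaning; if these are array positions, they cannot be told apart from siRNA. The fits were tested on simulated data.

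The members and lists were chosen with earlier results of these data known. From each list the text names up to 4 genes past the threshold by size, or the 2 furthest genes where fewer than 2 passed, and it names the 5 genes most like SLC2A3 and SLC2A1 by Pearson's r.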

Additional observations from a re-analysis of the deposited data

Results flagged for a closer look

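SLC2A14 in siRE at 96 h stood at 5.57 and apart from the other 3 siRE arrays, which lay between 4.60 and 4.65; the gap was 0.946 of the range of the arm, above Dixon's critical value for 4 values. All 4 values were below background. Of 14 such checks, 2 per member, 1 passed the limit, and chance flags about 1 in 20 groups.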

How the results depend on the processing

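With 1 array per siRNA and time, the number of arrays limits every result, and a pair left out takes degrees of freedom with it. The arrays are paired by time; without the replicate block of time, 530 probes passed for siRE against siMM (889 with it), and no member gained or lost its call. With values raised to the background limit, the counts were 464 for siRE against siMM, 6 for the difference of slopes (18 in the main fit), 97 for the siRE slope (295) and 0 for the shared time effect (13). With no filter, 29 probes passed for the difference of slopes and 37 for the shared time effect; with log2 of the day, 32 passed for the difference of slopes, and with a robust prior and an intensity trend, 101 for the shared time effect. Leaving out each time pair in turn gave 251 to 1175 probes for siRE against siMM, 4 to 15 for the difference of slopes, 80 to 231 for the siRE slope, 0 to 89 for the shared time effect, and 0 for the siMM slope. The cause of these shifts was not tested. For siRE against siMM, the members kept their direction in 49 of 49 alternative values and their side of the threshold in 45. The signs of siMM slopes near 0 were not stable: they turned with log2 of the day for SLC2A1 (0.0081), SLC2A3 (0.11), SLC2A4RG (-0.034) and SLC2A5 (0.027), and at the background limit for SLC2A14 (-0.010). With a pair left out they ranged from -0.15 to 0.14 for SLC2A1, -0.29 to 0.28 for SLC2A3, -0.14 to 0.24 for SLC2A14, -0.082 to 0.049 for SLC2A4RG and -0.044 to 0.041 for SLC2A5. The difference of slopes turned for SLC2A14 at the background limit (0.010) and for SLC2A4RG with a pair left out (-0.029 to 0.13), and the siRE minus siMM difference of SLC2A11 ranged from -0.18 to 0.39. Of the siRE against siMM and time effect values of genes named from the lists, 159 kept direction and side, 38 lost the call, 4 gained it and 1 turned.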
